A study of Arapaima gigas with 24 samples.

Results

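The gene models described here differed between male and female brain and had nearly equal mean levels in testis and ovary of Arapaima gigas, the pirarucu of the Amazon basin, which breathes air. There were 150 of them among 22016 gene models in the deposited count table. They were chosen from the measured values. The counts of both runs of a fish and tissue were added, and the level L was taken as log2(CPM + 0.5) minus the sample's median over gene models, where CPM is the usual scaling of a count by the total of its sample. The 220 gene models of highest mean CPM were set aside, which left 21796. A member had to have brain L values that did not overlap between 3 females and 3 males, and an absolute mean male minus female L under 0.1 in the gonad. Of 1931 gene models that met both criteria (8.86% of 21796), the 150 with the largest absolute brain difference were kept. In 99 members the level was higher in female brain, and in 51 it was higher in male brain.

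The study asked which genes differ in expression between the sexes in the gonads and the brain. Its 4 groups were the brain and ovary of 3 females and the brain and testis of 3 males, all farmed fish in their reproductive period, at least 4 years old and 100 to 120 cm long, with no treatment or genetic change in the labels. Sex was read from spermatozoa in the testis or primary oocytes in the ovary. Poly(A) RNA with integrity numbers of 8 to 8.5 was read as 50 nt SOLiD reads. The labels give 2 sets of reads per fish and tissue, called run 1 and run 2 here, and the reads were mapped to the genome of another bonytongue fish, the Asian arowana (Scleropages formosus).

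In fishes the adult brain takes part in the control of reproduction. Neurons of the hypothalamus act through the pituitary on the gonads, and sex steroids from the gonads, and estrogen made by aromatase in the radial glia of the brain itself, act back on neurons and glia. Genes that differ between the sexes in the brain need not be those that differ between ovary and testis, which hold different germ cells. The count table names its gene models only by identifier, and no names of these identifiers were used here, so no gene symbol, role, sequence or genome position is given for any member, and neither tissue could be checked against its marker genes.

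The 12 summed samples held 5689872 to 13142667 counts, with the lowest total in the brain of female 3. The 220 most abundant gene models held 17.4% to 26.5% of counts in female brains and 11.4% to 14.7% in male brains. They held 21.5% to 26.4% in ovaries. In the testes of males 1, 2 and 3 they held 21.0%, 13.2% and 20.5%. The testis of male 2 thus lay with the male brains in this measure and apart from the other testes. Across all 22016 gene models its L values also correlated most closely with the 3 male brains, at r = 0.984, 0.981 and 0.979, and at 0.977 and 0.947 with the other testes. The testes of males 1 and 3 were also nearest to a brain, that of female 1 (r = 0.984) and that of female 3 (0.972). The testis of male 3 reached 0.961 and 0.947 with the other testes. Brain and gonad samples were not set apart as tissues in general. The nearest sample by this r was one of the other tissue in 10 of 12 samples, and r had a median of 0.964 over 30 pairs of samples within a tissue and of 0.963 over 36 pairs between tissues. Brain, ovary and testis are named here as labelled, and results that compare tissues rest on those labels. Gene models are not independent and all samples share one mapping, so these values are descriptions. Because the testis samples were not alike, results on the testis are given for each male.

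Each of the 99 female-higher members had a higher L in every female brain than in any male brain, as the choice required. Their median brain difference, male minus female, was -0.54 on the log2 scale, which is 1.45-fold, and the largest was -1.40. The 51 male-higher members had a median difference of 0.46, which is 1.38-fold, and a largest one of 0.71. Absolute differences of at least 1 were seen in 6 members, all female-higher. They were seen in 134 of the 21796 gene models, where the largest male-higher brain difference was 0.87. The lack of male-higher ones is thus not particular to the members. At the limit of the list, the brain differences of the 3 members ranked last were 0.42, -0.42 and -0.42, and those of the 3 gene models just outside it were 0.42, 0.42 and -0.42, so the limit falls in a continuous range. These values chose the members and were not tested. In whole tissue, fewer cells of a type and less RNA per cell cannot be told apart. Brain L of the sexes did not overlap in 5645 of the 21796 gene models (25.9%), with 14.2% higher in males and 11.7% higher in females. The quasi-likelihood test of edgeR, with Benjamini-Hochberg adjustment over 22015 gene models, called 0 of them (0%) between male and female brain at an adjusted p under 0.05. The lowest adjusted p-value was 0.130, and 4012 gene models had an unadjusted p under 0.05. Between the gonads of the sexes, edgeR made 0 calls among 22001 gene models (lowest adjusted p = 0.8095, 1283 at an unadjusted p under 0.05). For the interaction, which tests whether the sex difference itself differs between brain and gonad, it called 0 of 22015 (lowest adjusted p = 0.9998, 571 at an unadjusted p under 0.05). No member is therefore shown by test to differ between the sexes in the brain, or to differ more there than in the gonad.

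Differences that meet both criteria were a minority among the gene models that separated the sexes in the brain. Of the 5645, 34.2% had an absolute gonad difference under 0.1, where 40.8% of all 21796 did. A gonad difference of at least 0.1 in the direction of the brain difference was found in 59.5%, and one against it in 6.25%. The plot of the brain difference against the gonad difference shows the members at either end of a narrow band.

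**Figure D1:**
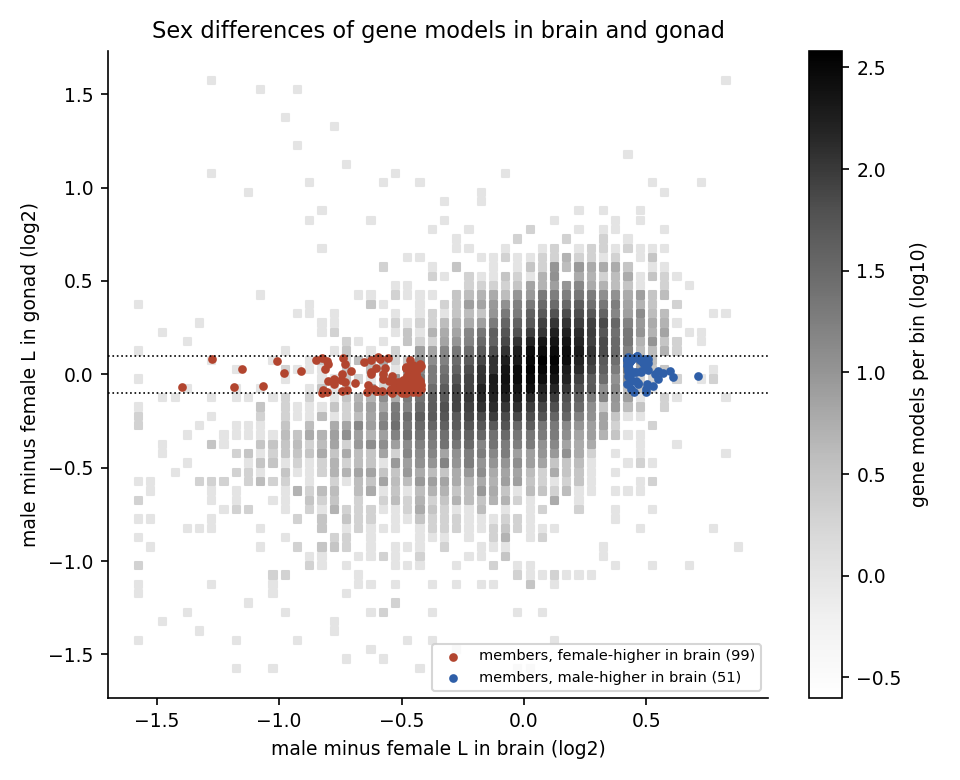
Male minus female difference of L in brain (x axis) and in gonad (y axis), in log2 units. Grey squares give the number of gene models per bin on a log10 scale, for the 21796 gene models left after the 220 most abundant were set aside, with values beyond 1.6 drawn at the edge; coloured points are the 99 female-higher and 51 male-higher members, which lie between the dotted lines at a gonad difference of 0.1 and -0.1 as the choice required.

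Members are numbered by rank in absolute brain difference. The member with the largest one, of rank 1, was at 280, 187 and 304 CPM in the brains of females 1, 2 and 3 and at 116, 109 and 124 CPM in those of males 1, 2 and 3. All female brains were high and all male brains were close together. Ovaries gave 113, 146 and 129 CPM and testes 140, 132 and 148 CPM, so that in CPM all 6 gonads lay near the male brains and below the female brains. On the L scale the gonads lay between the brains, with means of 3.41 in female brain, 2.01 in male brain, 2.51 in ovary and 2.44 in testis. The mean of female brain was 257 ± 62.1 CPM, that of male brain 116 ± 7.24, that of ovary 129 ± 16.4 and that of testis 140 ± 7.88 (SD, n = 3). Its brain difference in L was -1.40 and its gonad difference -0.07 with an SE of 0.19.

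The member of rank 2 shows another way to a small gonad difference. Female brains 1, 2 and 3 gave 28.6, 83.8 and 56.8 CPM. Male brains 1, 2 and 3 gave 25.03, 32.4 and 20.9 CPM. In CPM the brains of the sexes overlapped, since female 1 lay below male 2, and they were apart only after each sample was centred on its median. Ovaries gave 68.5, 72.3 and 45.8 CPM. The testes of males 1, 2 and 3 gave 104, 26.1 and 146 CPM, so that the testis of male 2 was at the level of the male brains and the other testes were above every ovary. The gonad difference in L, 0.08, had an SE of 0.87, larger than the SE of the previous member.

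Among the male-higher members, that of rank 27 had the largest brain difference, 0.71. It was counted at 68, 29 and 22 reads in the brains of females 1, 2 and 3, which is 5.17, 2.71 and 3.87 CPM, and at 97, 83 and 74 reads in those of males, which is 9.16, 8.10 and 7.09 CPM. Ovaries gave 4.09, 6.61 and 5.92 CPM and testes 6.48, 6.45 and 5.73 CPM. In CPM the ovary of female 1 lay within the range of the female brains, and the other 5 gonads lay between the brains of the sexes. On the L scale the ovaries of females 2 and 3 and the testis of male 1 lay instead within the range of the male brains. The next male-higher member, of rank 37, rested on fewer reads, with 21, 9 and 8 in female brains and 35, 28 and 24 in male brains. Its brain difference was 0.61, with an error from counting alone of 0.30 (SE). The testis of male 2 gave 43 reads and that of male 3 gave 8, at 3.65 and 0.90 CPM, one above all brains and the other near the lowest brain. The gonad difference of -0.02 had an SE of 0.41.

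**Figure D2:**
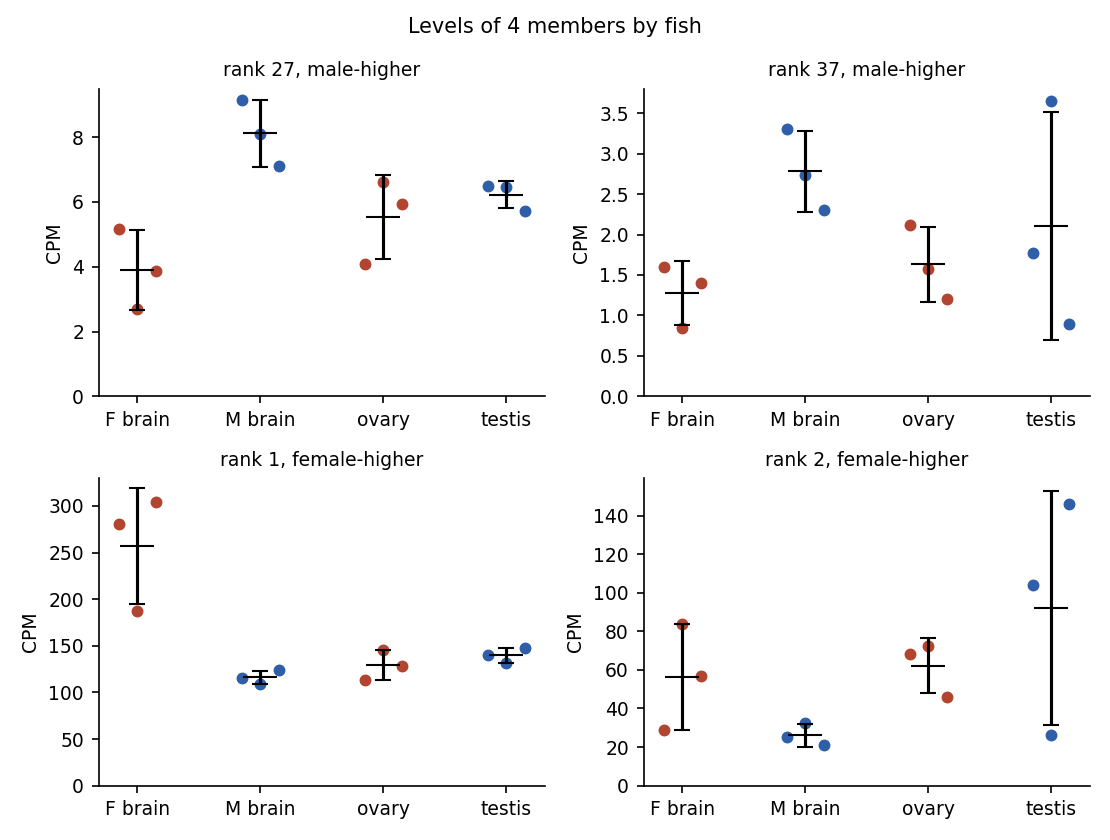
Level in CPM (y axis, from 0) of the 2 members with the largest male-higher brain difference (top) and the 2 with the largest female-higher one (bottom), by group (x axis). Points are the 3 fish of a group in the order 1 to 3, dashes the mean and bars the SD; the testes of the members of rank 37 and rank 2 spread from 0.90 to 3.65 CPM and from 26.1 to 146 CPM.

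Likeness to these 4 members was measured as Pearson's r of L over the 12 samples. The 3 gene models outside the list with the closest pattern reached r = 0.90, 0.87 and 0.87 for the member of rank 1 and 0.93, 0.91 and 0.91 for the member of rank 2. For the male-higher member of rank 27 they reached 0.90, 0.88 and 0.88, and for the member of rank 37 0.92, 0.92 and 0.91. The points share the 12 samples, and the closest of 22016 gene models is high by choice, so these values are descriptions.

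Both sides of the list differed in abundance. The rule used abundance directly only to set aside the top 220, but keeping the largest log2 differences let it enter the choice indirectly. The female-higher members had a median mean level of 46.7 CPM (range 2.27 to 294), the male-higher ones of 6.17 CPM (0.973 to 26.3), and all gene models of 25.1 CPM. When all gene models were split by level into 5 bins of nearly equal number, 43 of the 51 male-higher members fell in the lowest bin and 0 in either of the highest bins. Of the 99 female-higher members 41 fell in the highest bin and 6 in the lowest. The lowest bin held 32.7% of the 150 members, against 12.2% of the 1931 meeting both criteria. The highest bin held 27.3%, against 24.2%. With a pseudocount of 2 the 150 chosen held 18 male-higher gene models, and with a minimum of 10 CPM they held 25. The abundance of the sides is thus not independent of the choice. Levels of different gene models are not corrected for length, which is not known here, and depend on how well reads of Arapaima map to arowana. The part of each library taken by the top 220 gene models was higher in every female brain than in any male brain and so moved with the same sex contrast, and its part in the result was not tested. When each sample's lowess trend of level on abundance was removed, the median brain difference was -0.54 in the female-higher members and 0.35 in the male-higher ones. The sexes then did not overlap in the brain in 87 of 99 and 37 of 51 members, where 24.1% of all gene models and 72.7% of the 1931 meeting both criteria did not. Scaling by total counts alone moved the median brain difference of all gene models from 0.02 to 0.31, and on that scale 20 of the 99 female-higher members did not overlap, with a median of -0.25, while all 51 male-higher ones did not. On that scale 51.2% of all gene models did not overlap.

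Reads behind the values differed accordingly. The median count of a member in a sample was 416.5 in the female-higher members and 63 in the male-higher ones. The counting error of the brain difference had a median of 0.06 (SE, log2) in the former and 0.16 in the latter. The brain difference was under 3 counting SE in 1 of 99 female-higher and in 25 of 51 male-higher members. It was so in 990 of the 1931 meeting both criteria and in 16332 of all 22016 gene models, whose brain differences are smaller. Counting errors cover the sampling of reads only, and reads without molecular identifiers are not independent molecules.

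Both runs come from the same fish, so their gap does not measure the spread between fish. The labels do not say whether they are separate library preparations or repeat sequencing, so which technical error the gap holds beside counting is not known. All 150 members had the same brain direction in both runs, which the choice on their sum favours. So did 1879 of the 1931 meeting both criteria and 16728 of all 22016 gene models. The sexes did not overlap in the brain in each run taken alone in 66 of 99 female-higher (66.7%) and 17 of 51 male-higher members (33.3%), where this held in 9.68% of all gene models and in 27.3% of the 1931 meeting both criteria. The absolute gap between the brain differences of the runs had a median of 0.11 in the female-higher members and 0.18 in the male-higher ones. A choice by the same rule in one run, read in the other, leaves out the counting error that made the choice. Differences between fish stay in both runs, and so would any error of a shared library preparation. The 83 female-higher gene models chosen in run 1 had a median brain difference of 0.56 there and 0.47 in run 2, in their chosen direction, which is 84.3%. The 67 male-higher ones fell from 0.55 to 0.20, or 35.9%. The reverse choice kept 87.6% of the difference in 80 female-higher and 32.3% in 70 male-higher gene models. The gonad limit was met in the other run by a minority. In the summed counts 40.8% of all 21796 gene models and 34.2% of the 5645 without overlap in the brain were under 0.1. That share was not counted in single runs. An absolute gonad difference under 0.1 was met in the other run by 48 of the 150 chosen in run 1 and by 43 of those chosen in run 2. Their median absolute gonad difference rose from 0.05 to 0.15 and from 0.05 to 0.16.

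**Figure D3:**
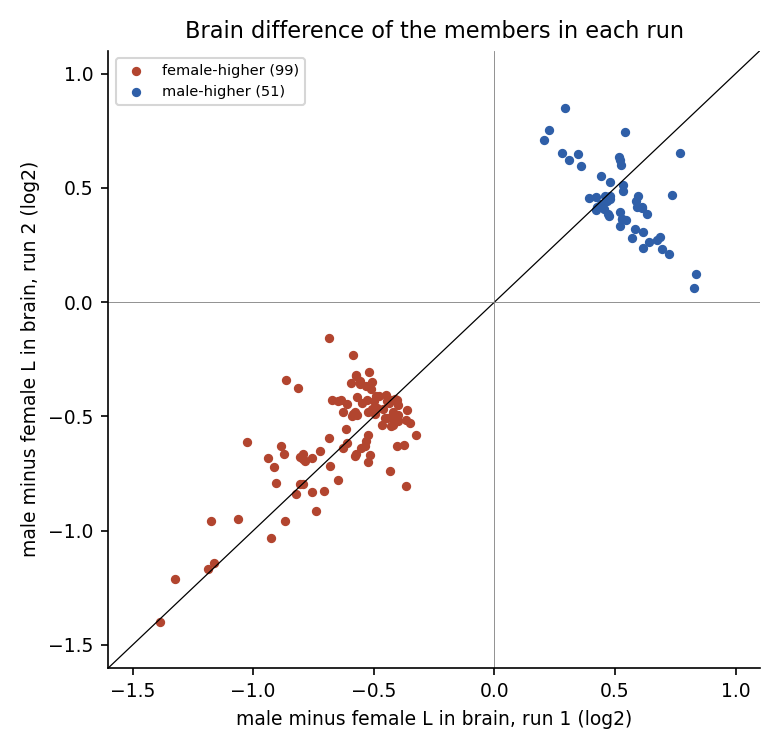
Male minus female difference of brain L in run 1 (x axis) and run 2 (y axis), log2 units, for the 99 female-higher and 51 male-higher members; the line marks equal values. The points keep their direction in both runs, and the gap between runs has a median of 0.11 in female-higher and 0.18 in male-higher members.

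Between fish, the female-higher members spread more in female brain than in male brain, with median SDs of L of 0.25 and 0.13 (n = 3 fish each). Female brain also spread more over all gene models (0.14 and 0.10) and over the 1931 meeting both criteria (0.09 and 0.06). Leaving out 1 fish cut the brain difference by more than 1.5 times in 29 of the 99 female-higher members. The fish was female 2 or female 3 in 12 members each and female 1 in 5, and no male. Of the 51 male-higher members 8 were cut as much, with female 2 in 5, female 3 in 2 and male 1 in 1. Such cuts were not counted over all gene models or the 1931, where female brain also spread more. The counts are therefore not shown to be particular to the members. The member of rank 5, picked as an example after its values were seen, was at 3.35, 3.64 and 16.3 CPM in female brains and 3.02, 3.22 and 3.55 CPM in male brains. Without female 3 its difference went from -1.06 to -0.39. The member of rank 11, picked in the same way, was at 16.5, 48.8 and 15.1 CPM in female brains and 15.9, 16.4 and 15.0 CPM in male brains, and its difference went from -0.82 to -0.21 without female 2. In both, 1 female brain lay far above all other brains. The other female brains overlapped with the male brains in CPM, and the sexes were apart only after each sample was centred on its median. Female 1 was the lowest of the female brains in 55 of the 99 female-higher members (55.6%), where it was the lowest in 26.8% of all gene models. In the male-higher members it was the highest of them in 28 of 51 (54.9%), against 36.7% of all gene models. The rule used these brain values, so the ranks are descriptions. Female 1 also had the lowest top 220 share of the female brains, 17.4%, and a link between them was not tested.

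In the gonad, the mean difference of each member was small by choice, and the fish behind that mean were not alike. The SE of the gonad difference had a median of 0.35 in the female-higher members and 0.22 in the male-higher ones, against 0.15 over all gene models, and it was above 0.3 in 67 of the 150. It was under 0.1 in 10 members. Of all 22016 gene models 2931 were above 0.3 and 4838 under 0.1. Of the 1931 meeting both criteria 159 were above 0.3 and 491 under 0.1. The 6 gonads spanned a wider range of L than the mean brain difference in 118 of 150 members (78.7%), a smaller share than the 97.7% of all gene models, whose brain differences are smaller. The small means do not show equal expression in ovary and testis. The gonads of the sexes did not overlap in 1 of 150 members, where they did not overlap in 11.4% of all gene models, and this low count follows from the rule.

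The 3 testes took different sides. Set against the mean of the ovaries and signed by the brain difference, the testis of male 2 lay on the side of the male brain in 136 of 150 members, with a median of 0.32. That of male 3 lay on that side in 37 members, with a median of -0.20, and that of male 1 in 81, with a median of 0.02. In 108 of 150 members the testis of male 2 was on the side of the male brain and that of male 3 on the opposite side, so that they offset each other in the mean. Over all 5645 gene models that separated the sexes in the brain, the testes of males 1, 2 and 3 lay on the side of the male brain in 76.3%, 90.5% and 45.4%, and males 2 and 3 were opposed in 48.2%. The limit on the gonad mean draws such opposed pairs into the list, so the difference from these shares is not evidence about the members. Of the 1931 meeting both criteria, males 2 and 3 were opposed in 66.5%, against 72.0% of the members. Among the 99 female-higher members alone, the testis of male 2 was the lowest testis in 79 (79.8%, against 34.0% of all gene models) and that of male 3 the highest in 63 (63.6%, against 35.1%). Among the 51 male-higher members the testis of male 2 was the highest in 33 (64.7%, against 37.5%). With the abundance trend removed, males 2 and 3 were opposed in 71 of 99 female-higher members, from 72 before, and in 24 of 51 male-higher members (47.1%), from 36 before. The share was then 46.0% over the 5645 gene models and 59.6% over the 1931 meeting both criteria. The male-higher members were near the first and below the second. The testis of male 2 was then on the side of the male brain in 29 of 51 male-higher members, from 44 before.

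The gonad means moved with the fish left out, male or female. Without male 2, the median gonad difference of the 99 female-higher members was 0.15. The difference lay in the brain direction in 11 of them, against 59.9% of all gene models and 31.1% of the 1931 meeting both criteria. Without male 3 the median was -0.17, and 73 (73.7%) lay in the brain direction, against 73.3% of all and 81.5% of the 1931. In the 51 male-higher members the median was -0.05 without male 2 and 0.11 without male 3. The gonad difference stayed under 0.1 without male 2 in 23 of 99 and 31 of 51 members. Of all gene models 44.8% were under it, and 71.4% of the 1931 were. Without male 3 the difference did so in 24 of 99 and 24 of 51, against 32.3% of all and 53.4% of the 1931. Over all 150 members it did so in 92, 54 and 48 without males 1, 2 and 3. Without females 1, 2 and 3 it did so in 59, 72 and 81. Of all 22016 gene models 7142, 8731 and 8745 were under the limit without these females. The median of the female-higher members was then -0.08, -0.08 and 0.07. The rule limited the mean over all 3 males and 3 females, so these shares are descriptions and not evidence about the members. Ovary 3 was the highest ovary in 59 of the 99 female-higher members (59.6%, against 38.4% of all gene models), and ovary 1 in 27 of the 51 male-higher ones (52.9%, against 33.7%).

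The plot of the members by sample shows these levels. Relative to each member's own mean over the 12 samples, the median L of the female-higher members was 0.06, 0.18 and 0.25 in the brains of females 1, 2 and 3. In the brains of males 1, 2 and 3 it was -0.29, -0.34 and -0.39. It was -0.06, -0.01 and 0.25 in ovaries 1, 2 and 3 and 0.02, -0.36 and 0.31 in testes 1, 2 and 3. The testis of male 2 was at the level of the male brains, and the other 5 gonads were above all of them. For the male-higher members it was -0.16, -0.30 and -0.21 in female brains and 0.22, 0.28 and 0.23 in male brains. It was 0.11, -0.05 and -0.13 in ovaries and -0.01, 0.17 and -0.16 in testes, so that testis 2 was the gonad nearest to the male brains here too.

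**Figure D4:**
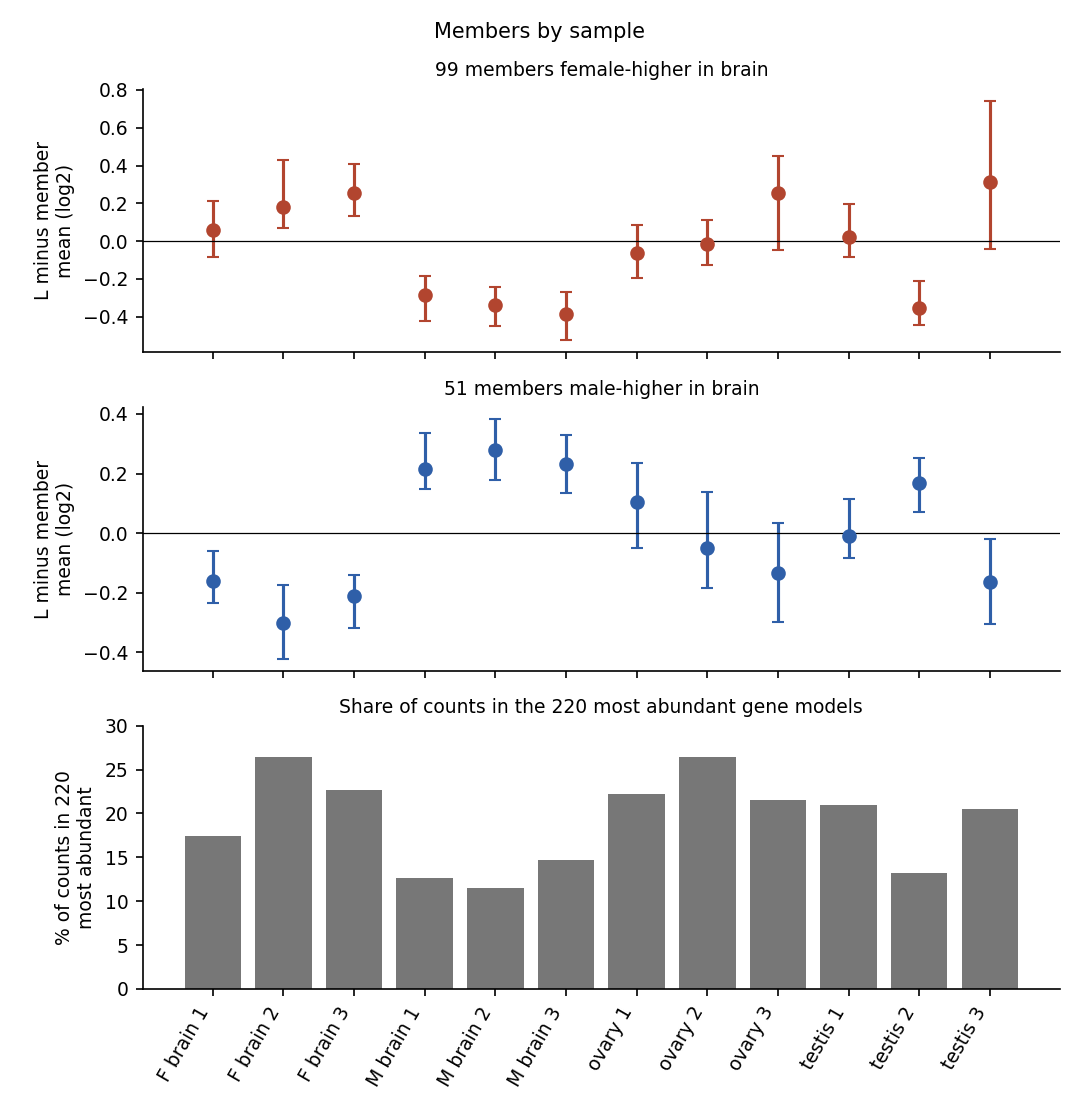
Upper panels: L of the 99 female-higher and the 51 male-higher members in each of 12 samples relative to each member's mean (log2 units), as the median (point) and quartiles (bars). Lower panel: percent of counts held by the 220 most abundant gene models, with 11.4% to 14.7% in male brains and 13.2% in testis 2, and 17.4% to 26.5% in the other 8 samples.

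Which brain departs from the gonads was not set by the rule, which used only differences between the sexes. The female-higher members had a median gonad minus brain difference of -0.10 in females and 0.42 in males, and the male-higher ones 0.23 in females and -0.25 in males. In the female-higher members the gonads thus lay nearer to female brain, and in the male-higher ones about midway. By fish, the median in the female-higher members was -0.13, -0.18 and 0.02 in females 1, 2 and 3. In males 1, 2 and 3 it was 0.26, -0.02 and 0.67. Among the males, male 2 was again the exception, with brain and testis at one level, as brain and ovary were in female 3.

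A stricter description counts members in which one brain group stood apart from all other 9 samples. All male brains were below the other 9 samples in 14 of 99 female-higher members (14.1%), where this held in 7.09% of the 2554 gene models that were female-higher without overlap in the brain in 8.93% of the 795 that also met the gonad limit and in 0.83% of all 21796. All female brains were above the other 9 samples in 10 of the 99 (10.1%), against 2.51% of those 2554, 4.78% of those 795 and 0.294% of all. Of the 51 male-higher members, 7 had all male brains above the other 9 samples (13.7%), against 11.1% of the 3091 male-higher ones without overlap, 14.5% of the 1136 that also met the gonad limit and 1.57% of all. All female brains were below the other 9 samples in 6 (11.8%), against 3.04%, 5.19% and 0.431%. The member of rank 1 is one of the 10 with female brain apart. Larger brain differences make such separation easier, and the members were kept for large ones. In 114 of the 150 members neither brain stood apart from the gonads.

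The tissue difference averaged over both sexes is a contrast the rule did not use, and it was tested in all 22015 gene models that passed the expression filter, all 150 members among them. The edgeR quasi-likelihood test, with Benjamini-Hochberg adjustment, called 0 of the 150 members (smallest adjusted p = 0.710) and 1 of all gene models (0.00454%). DESeq2 and limma-voom also called 0 members. At an unadjusted p under 0.05 there were 26 members in edgeR, 30 in DESeq2 and 18 in limma-voom, where edgeR gave 6.63% of all gene models, 3.55% higher in gonad and 3.08% higher in brain. DESeq2 gave 7.96% of all, 5.2% higher in gonad and 2.76% higher in brain, and it called 24 of all gene models (0.109%). Of the 26, 15 were higher in gonad and 11 in brain, and 23 were female-higher members. With the fish as a block, since the labels tie a brain and a gonad to each fish, the count was 10, of which 5 were higher in gonad and 5 in brain, with 5.74% of all gene models, 2.97% higher in gonad and 2.78% higher in brain. That fit had no term for a tissue difference that depends on sex. The brain sex difference that chose the members therefore adds to their residual spread in it. Counts of members with and without the block thus cannot be read as an effect of pairing. In fits without the block, the count was 14 without male 3, 15 without female 3 and 16 without male 1. It was 18 without female 2, 21 without female 1 and 37 without male 2. The share over all gene models was not counted for these fits or for limma-voom. The median log2 fold change, gonad minus brain, was 0.20 in the female-higher members, 0.00381 in the male-higher ones and 0.00522 over all gene models. The first of these was 0.04 without male 3 and 0.30 without male 2. With scaling by total counts it was 0.07, where the median over all gene models moved to -0.11. For the member of rank 2 the fold change was 1.11 (edgeR, adjusted p = 0.710), and for the member of rank 1 it was -0.23 (edgeR, adjusted p = 0.721).

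Fish that took no part in a choice give the same measures without its bias. The rule was applied to 2 females and 2 males, 150 gene models were kept, and the difference between the left-out male and female was read in the chosen brain direction, for each of the 9 pairs of fish. Brain L of the left-out pair lay in the chosen direction in a median of 78.7% of the 150 gene models (48.0% to 90.7%), where all 21796 gene models gave 64.9% (61.1% to 69.0%). The median was 84.1% in the female-higher gene models chosen (46.2% to 95.3%) and 62.5% in the male-higher ones (16.7% to 81.8%), the latter below the share of all gene models. The median difference in that direction was 0.24 (-0.00879 to 0.73), against 0.66 in the fish used for the choice. In the gonad of the left-out pair, 70.7% of the chosen gene models lay in the brain direction (60.7% to 95.3%), where all gene models gave 58.5% (47.5% to 71.6%). The median gonad difference in the brain direction was 0.24 (0.07 to 0.78), about the size of the brain difference in the same left-out fish. The absolute gonad difference of a left-out pair had a median of 0.35 in the chosen gene models and 0.19 over all gene models. A pair of single fish thus differs by more than the limit of 0.1 in most gene models, and cannot show whether a mean under it holds. In each of the 9 pairs the gonad share in the brain direction was above that of all gene models.

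The left-out fish differed. Pairs with male 2 left out had 78.7% to 90.7% in the brain direction in the brain and 89.3% to 95.3% in the gonad. Pairs with male 3 left out had 48.0% to 70.7% in the brain and 60.7% to 70.7% in the gonad, and pairs with female 1 left out 48.0% to 78.7% in the brain. The lists chosen this way shared 12 to 36 of their 150 gene models with the members. The pairs share fish and are not independent, and no test was made over them.

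**Figure D5:**
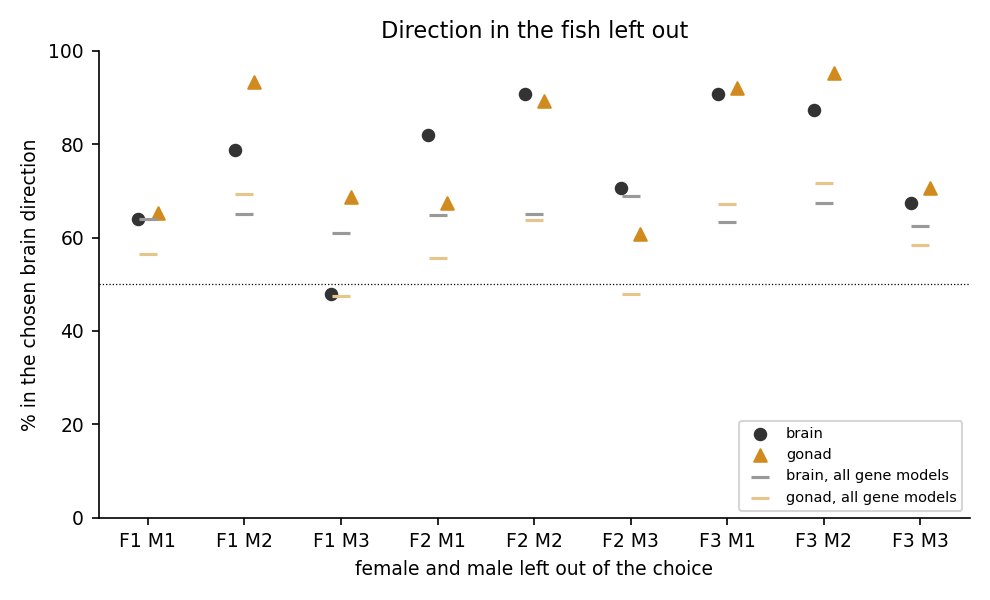
Percent of gene models (y axis) whose male minus female difference in the left-out female and male lies in the brain direction chosen in the other 4 fish, for 9 pairs of left-out fish (x axis, F female and M male with their numbers). Circles are brain and triangles gonad for the 150 chosen gene models; short bars are all 21796 gene models. The gonad lies at 89.3% to 95.3% in the 3 pairs with male 2 and at 60.7% to 92.0% in the others.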

How the data were processed

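Poly(A) RNA of brain and gonad of 3 female and 3 male A. gigas, per the labels' protocols, was measured in 24 sets of reads. The deposited values are raw counts of reads, whole numbers for every gene model in each set. The arowana genome served as the authors' mapping reference, per the series design text, and the submitters' processing notes name Bowtie. Not given in the sources used here are the Bowtie version, genome build, annotation, counting tool, use of strand and how multiply mapped reads were handled. Reads map less well where the species differ, and copies of a gene can share reads.

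The 2 runs of a fish and tissue were summed to 12 samples (5689872 to 13142667 counts), n = 3 fish per group. L is log2(CPM + 0.5) minus the sample's median. Tissues were compared by quasi-likelihood fits in edgeR 4.0.16 under R 4.3.3 (TMM, default expression filter with a minimum count of 10 and minimum total of 15, 4 group means, contrast of mean gonad minus mean brain), with Benjamini-Hochberg adjustment over all gene models and a threshold of 0.05. DESeq2 1.42.0, limma-voom 3.58.1, other scalings, filters, pseudocounts, single runs, a fish block and omission of each fish were alternatives. DESeq2 adjusted p-values left undefined stayed so. Brain and gonad of a number come from 1 fish per the labels, so the fish block pairs them. The block fit had terms for fish and tissue and none for a tissue difference that depends on sex. Scripts were tested on simulated data.

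Members, lists and tests were chosen with earlier results of these data known. Members described singly are the 2 with the largest brain difference in each direction, and a few others picked after their values were seen. All are given by rank in absolute brain difference, and identifiers are not reported here. Marker gene lists could not be matched to identifiers and were not run. The counts of members leaning on 1 fish, of the side taken by each testis and of brains apart from the other 9 samples were added after the data were seen.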

Additional observations from a re-analysis of the deposited data

How the results depend on the processing

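The list depended on the settings. Of the 150 members, 60 were chosen again with upper-quartile scaling, 3 with total counts alone, 63 with the abundance trend removed, 72 and 61 with a gonad limit of 0.05 and 0.2, and 51 and 50 in runs 1 and 2 alone, against 104 to 148 with TMM scaling, pseudocounts of 2 and 0.1, a minimum of 10 CPM or no abundant gene models dropped. Leaving out 1 fish left 9 (male 2) to 59 (male 1). Part of this loss was of rank within the 150 alone. With a limit of 0.2 all 150 members still met both criteria, as did 93 with upper-quartile scaling and 98 with the trend removed. With total counts alone 7 did, and without 1 fish 48 (male 3) to 92 (male 1). Female-higher gene models among the 150 chosen numbered 59 with upper-quartile scaling and 16 with total counts alone, where the median of all gene models shifts by 0.28 in brain, but 134 with the trend removed, 132 with a pseudocount of 2 and 89 to 145 without 1 fish, so that male-higher ones ranged from 134 (total counts alone) to 5 (without male 2). Gene models meeting both criteria numbered 977 and 3570 with limits of 0.05 and 0.2, and 1889 to 3498 without 1 fish, where fewer fish make non-overlap easier. The median brain difference of the male-higher members was 0.55 with upper-quartile scaling, 0.75 with total counts alone, 0.35 with the trend removed, 0.34 and 0.52 with pseudocounts of 2 and 0.1, and 0.44 to 0.52 without 1 fish. That of the female-higher members was -0.25 with total counts alone and -0.62 to -0.49 without 1 fish. The gonad median of the male-higher members was 0.21 with total counts alone. The tissue test called 0 members under every alternative run. Its count of members at an unadjusted p under 0.05 was 10 with the replicate block, where 5.74% of all gene models were under it. Without 1 fish the count was 14 to 37. The share over all gene models was not counted for those fits, so their counts cannot be read as a result about the members. The block fit lacked a term for a tissue difference that depends on sex. Held-out shares moved by less than their spread. The causes were not tested. Counting error is a limit for the 25 of 51 male-higher members under 3 counting SE, as it is for 990 of the 1931 meeting both criteria.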
